A study of Mus musculus with 4 samples.

Results

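The genes described here are 8 members of the retinoic acid pathway, found by symbol among the 28692 genes of 1 pooled single-cell count matrix from adult mouse testis. Rdh10, Aldh1a1 and Aldh1a2 encode enzymes that make retinoic acid, Cyp26b1 encodes an enzyme that breaks it down, Crabp1 encodes a protein that binds it inside cells, Rara and Rarg encode nuclear receptors for it, and Stra8 is a gene that germ cells switch on in answer to it. The study set testes of Phf7 tKO mice, whose genotype was Stra8-Cre:Phf7 f/f, beside testes of Phf7 f/f mice, with 2 samples of each. Both groups carried the floxed Phf7 alleles, were of strain C57BL/6 and were taken on post natal day 63. In the tKO mice the Cre recombinase was driven by Stra8, itself 1 of the 8 genes, so deletion was directed to germ cells that use that promoter. Testes were dissociated with enzymes, red blood cells were lysed, and libraries were made with a droplet kit that reads the 3′ ends of transcripts and counts molecules by unique molecular identifiers (UMI). The cell barcodes carried 4 suffixes, 1 to 4, that no label ties to a sample. The matrix was therefore treated as 1 sample, the values of the 4 suffixes are given as the spread, no genotype was compared and no p-value is given. Where suffix values are listed, they run from suffix 1 to suffix 4.

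Retinoic acid is made from retinol (vitamin A) by oxidation to retinal, the step of RDH10, and then to the acid, the step of the ALDH1A enzymes. CYP26 enzymes oxidise it to inactive products, CRABP proteins hold it in the cytoplasm, and RAR receptors bind DNA with RXR partners as ligand-dependent transcription factors. In the mouse testis it is known as the signal for the passage of undifferentiated spermatogonia to KIT-positive differentiating spermatogonia and for entry into meiosis, at which Stra8 is switched on.

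RAR and RXR bind motifs built from AGGTCA and its variants. The 250 bases before the transcription start are shown for Stra8 and Crabp1, since these were the members with the narrowest germ cell range. Both are RefSeq sequences of GRCm38.p6, printed 5′ to 3′ on the plus strand, with AGGTCA in capitals.
Stra8, chr6:34920698-34920947: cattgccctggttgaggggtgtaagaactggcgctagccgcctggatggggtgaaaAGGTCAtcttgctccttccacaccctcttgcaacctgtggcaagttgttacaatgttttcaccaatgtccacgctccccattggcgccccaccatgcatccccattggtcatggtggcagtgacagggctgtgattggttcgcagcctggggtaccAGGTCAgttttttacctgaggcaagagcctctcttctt
Crabp1, chr9:54764498-54764747: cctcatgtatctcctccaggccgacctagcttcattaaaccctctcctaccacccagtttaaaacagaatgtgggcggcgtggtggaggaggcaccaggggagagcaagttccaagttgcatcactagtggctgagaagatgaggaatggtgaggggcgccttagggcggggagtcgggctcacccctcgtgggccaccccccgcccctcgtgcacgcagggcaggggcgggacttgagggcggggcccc
The Stra8 window held AGGTCA 2 times, starting 194 and 38 bases before the RefSeq start. GENCODE M21 places the start of Stra8 further upstream, at chr6:34920163, so the whole window lies inside the gene in that annotation. Both strands were searched, and AGGTCA occurred in 14.0% of 32851 promoter windows of this length. The variants searched beside it were GGGTCA (in 11.6% of windows), AGTTCA (in 11.8%) and GGTTCA (in 8.85%), and 38.6% held at least 1 of the 4 motifs. The Crabp1 window held none. The other members' windows were searched likewise, with 12 windows found for 7 of the 8 members and none for Rdh10. One of the 4 Rara windows held 4 motifs, and one window each of Rarg and Aldh1a1 held 1. No member's window held a pair of motifs in the same direction with 2 or 5 bases between them, an arrangement present in 0.262% of all windows. These matches describe letters and say nothing of binding.

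The matrix held 32273 barcodes and 190744950 UMI, of which 29967 cells were kept, with a median of 2244 to 2974 UMI per cell by suffix. Clusters were named after markers as "X-like", and 26.6% of the cells stayed unnamed. Retinoic acid genes were left out of the genes that set the clusters, but genes expressed with them were not, so levels by class are descriptions and not tests. Levels are given as CPM, the summed UMI of a gene for every 1000000 UMI of all genes in a class. Early spermatocyte-like cells (469) had Uchl1, a spermatogonial marker, at 23.9 CPM, against 718 CPM in spermatogonia-like cells (692). The whole list of 12 spermatogonial markers did not separate the classes, with a summed level of 1801 CPM in late spermatocyte-like cells (3531) against 1635 CPM in spermatogonia-like cells. Dmrtb1 alone had 1743 CPM in late spermatocyte-like and 299 CPM in spermatogonia-like cells. Leydig-like cells (328) had Insl3 at 2713 CPM, peritubular myoid-like cells (30) Acta2 at 5913 CPM, and Sertoli-like cells (1943) Cst12 at 1924 CPM. The whole list of 14 Sertoli markers summed to 13511 CPM in this last class, yet it still reached 3002 CPM among Leydig-like cells. Of these markers, Defb19 was highest in Leydig-like cells, at 1300 CPM against 1102 for the Sertoli-like class. Trf peaked in macrophage-like cells (648 against 26.0 CPM) and Wt1 in endothelial-like cells (292 against 115 CPM). RNA of elongating spermatid markers was found in every class, with a summed level of 54173 CPM in Sertoli-like cells and 192752 CPM in elongating spermatid-like cells (8766). Phf7, the targeted gene, had 68.5, 387, 711 and 99.9 CPM in round spermatid-like cells (5694) by suffix, and suffixes were not assigned to genotypes from it. Of 31772 barcode sequences, 497 occurred under more than 1 suffix.

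Aldh1a1, a retinal dehydrogenase, was a gene of interstitial cells and above all of Leydig-like cells. Leydig-like cells had 3073 CPM (95% Poisson interval 3006 to 3141), with 3078, 3667, 2623 and 3188 CPM by suffix. All 328 cells had at least 1 UMI, with 24.3 UMI per cell. These cells were 1.09% of all cells and held 80.9% of the 9856 UMI of Aldh1a1. Interstitial mesenchymal-like cells (216) had 515 CPM, with 537, 689, 480 and 452 CPM by suffix, and peritubular myoid-like cells had 366 CPM. Sertoli-like cells had 140 CPM, with 111, 154, 182 and 115 CPM by suffix. No suffix value of the Leydig-like cells came near those of any other class. Leydig-like cells were 5.97-fold above interstitial mesenchymal-like cells (5.27 to 6.79) and 21.9-fold above Sertoli-like cells (19.8 to 24.2), in 4 of 4 suffixes each. Intervals cover counting error only, here and throughout.

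Leydig markers were lower in the other somatic classes with Aldh1a1. The summed Leydig markers had 18556 CPM in Leydig-like, 245 CPM in interstitial mesenchymal-like, 62.5 CPM in peritubular myoid-like and 27.7 CPM in Sertoli-like cells, while Aldh1a1 in the last 3 was at 515, 366 and 140 CPM. Endothelial-like cells had 309 CPM of these markers and 40.7 CPM of Aldh1a1, and macrophage-like cells 143 and 24.5 CPM. The part of carried-over Leydig RNA in these levels was not tested. A further cluster of 337 cells led by Leydig genes, unnamed because of its low depth, had 1270 CPM of Aldh1a1. Among the 19152 named germ cells Aldh1a1 had 1.22 CPM, with 1.02, 0.957, 1.41 and 1.45 CPM by suffix. A UMI of Aldh1a1 was found in 16.0% of Sertoli-like cells (median 1049 UMI per cell), against 0.856% of germ cells (median 3872 UMI). With cells thinned to 1000 UMI the shares were 13.0% and 0.201%. Cells under 1000 UMI were left out of these shares, 844 of the 1943 Sertoli-like and 740 of the 19152 germ cells.

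**Figure D1:**
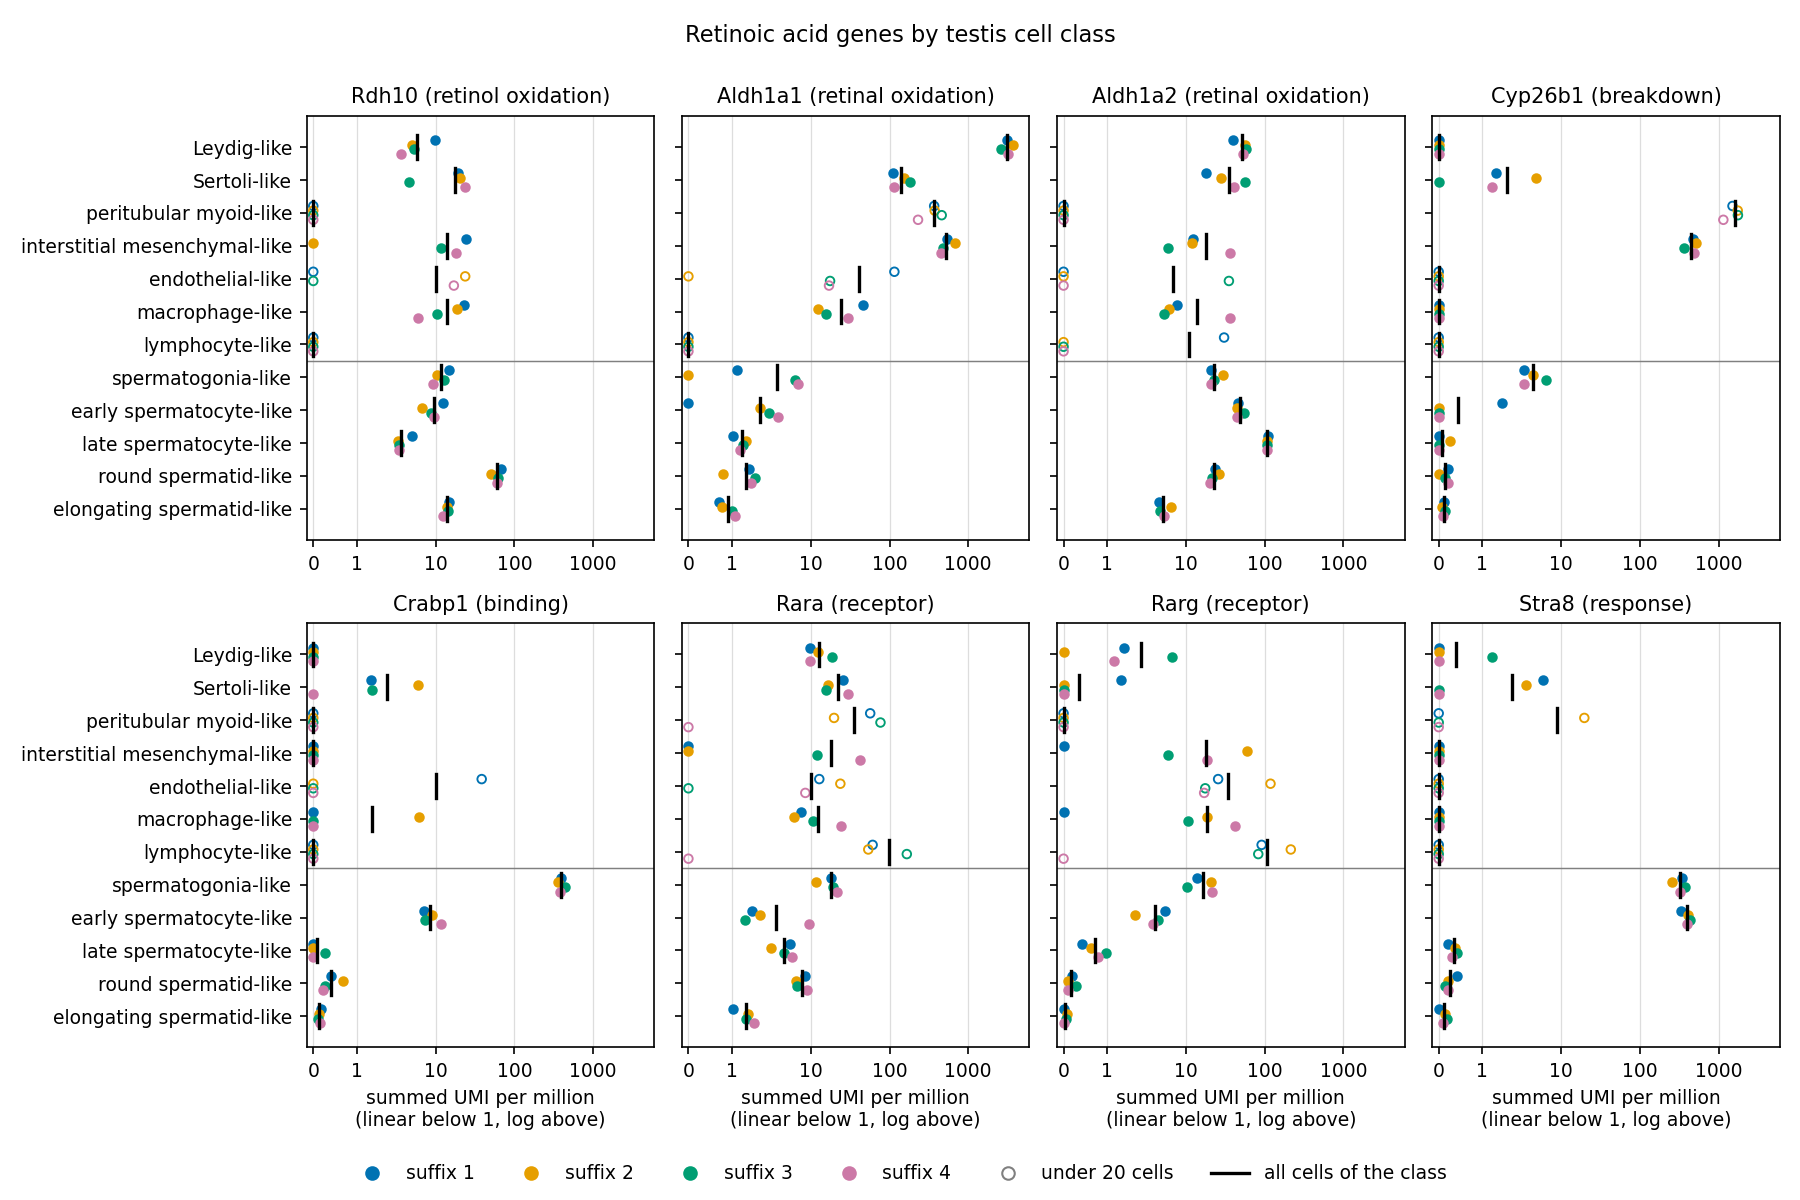
Level of each of the 8 genes by cell class, in CPM (log scale above 1 and linear below). Black bars give the pooled level, points the 4 barcode suffixes, and open points stand for under 20 cells. Aldh1a1 peaks in Leydig-like cells at 3073, Cyp26b1 in peritubular myoid-like cells at 1608, and Crabp1 in spermatogonia-like cells at 391.

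Cyp26b1, the retinoic acid hydroxylase, lay in the cells around the tubules and in the interstitium. Peritubular myoid-like cells had 1608 CPM (1381 to 1860) from 180 UMI, with 1505, 1755, 1765 and 1152 CPM by suffix, and 93.3% of the 30 cells had a UMI. Interstitial mesenchymal-like cells had 449 CPM (392 to 511), with 476, 520, 362 and 488 CPM by suffix, and 44.4% of them had a UMI. The lowest peritubular suffix lay above the highest interstitial one, on 4 to 11 peritubular cells per suffix. Peritubular myoid-like cells were 3.58-fold above interstitial mesenchymal-like cells (2.93 to 4.38). The same pair showed the opposite order for Aldh1a1, with a ratio of 0.71 (0.50 to 0.99). When cells of any class with at least 4 of 8 peritubular markers were taken instead, a choice made after seeing the data, 63 cells had 571 CPM of Cyp26b1, with 806, 1416, 372 and 125 CPM by suffix.

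The cells named Leydig-like showed the reverse combination, the highest Aldh1a1 and no Cyp26b1. No UMI of Cyp26b1 was found in 328 Leydig-like cells, which at a floor of 3 counts allows a share of cells with a UMI of up to 0.915% and a level of up to 1.16 CPM. Sertoli-like cells had 6 UMI (2.05 CPM), named germ cells 0.215 CPM, and endothelial-like, macrophage-like and lymphocyte-like cells none. In spermatogonia-like cells, 14 UMI gave 4.35 CPM.

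The interstitial mesenchymal-like cells were not uniform. Subcluster 3 (105 cells), led by Pi16 and Clec3b, had 729 CPM of Cyp26b1, with 899, 618, 610 and 812 CPM by suffix, and 765 CPM of Aldh1a1. Subcluster 2 (111 cells), led by Osr1, C3 and Igfbp3, had 224 CPM of Cyp26b1, with 113, 410, 204 and 222 CPM by suffix, and 315 CPM of Aldh1a1. Subcluster 3 was above subcluster 2 by 3.25-fold for Cyp26b1 (2.41 to 4.42) and by 2.43-fold for Aldh1a1 (1.86 to 3.18), in 4 of 4 suffixes for both genes. UMI of both genes in the same cell were found in 55 of 105 cells of subcluster 3 and in 10 of 111 cells of subcluster 2. A further 34 cells, unnamed and led by Akr1cl and Bhmt, had 1296 CPM of Aldh1a1 and 983 CPM of Cyp26b1, with both in 22 cells. These 34 cells scored highest as Leydig (1.30), ahead of interstitial mesenchymal (1.05), and stayed unnamed because markers of another type led. The absence of Cyp26b1 above therefore holds for the named Leydig-like cells only. Both genes were also found together in 19 of the 30 peritubular myoid-like cells.

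**Figure D2:**
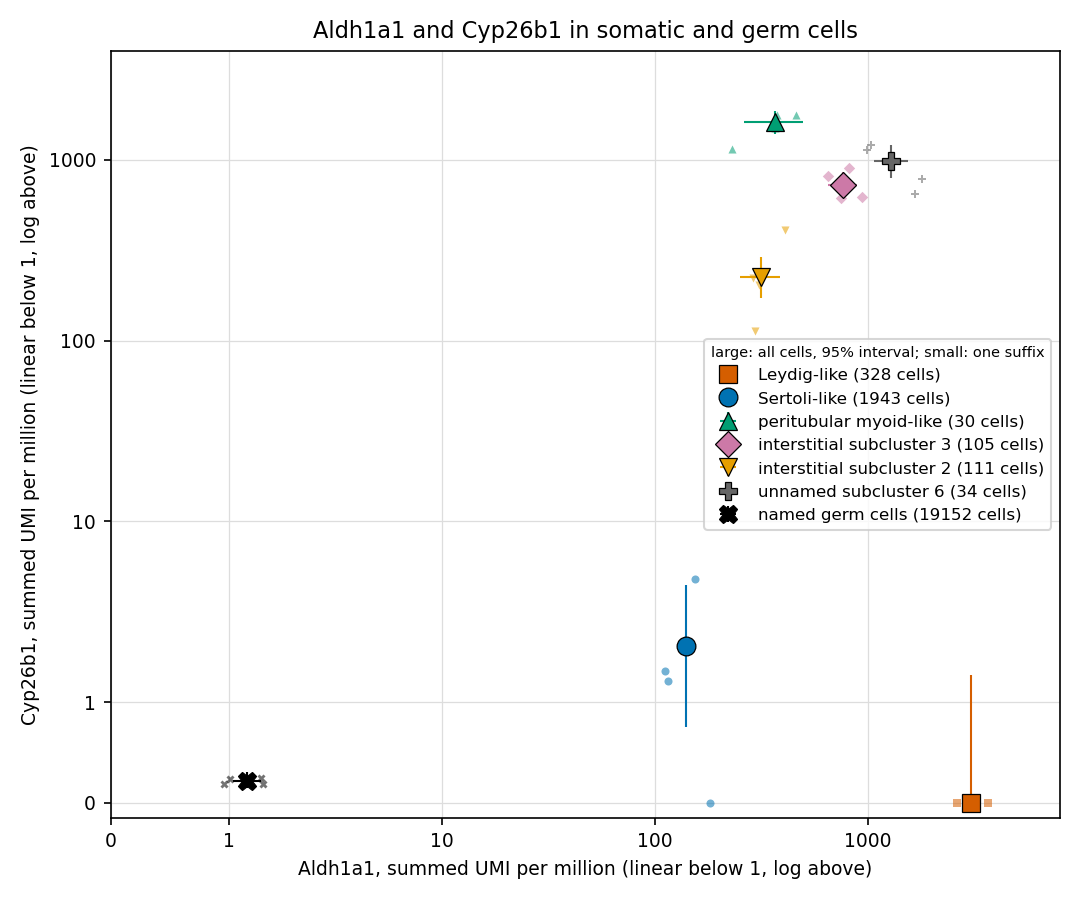
Level of Cyp26b1 (vertical axis) against Aldh1a1 (horizontal axis) in CPM (summed UMI per class total), both log scales above 1 and linear below. Large markers are all cells of a class or subcluster with 95% Poisson intervals, small markers single suffixes. Leydig-like cells sit at 3073 for Aldh1a1 and 0 for Cyp26b1, peritubular myoid-like cells at 366 and 1608.

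For the ratios that follow, a gene was called where its level differed at least 2-fold and lay the same way in every suffix with at least 20 cells in both classes. Genes with under 50 UMI over both classes were left out, and values in parentheses are log2 ratios with their intervals. In Sertoli-like cells over named germ cells, Aldh1a1 (log2 6.84, interval 6.58 to 7.11) and Rara (2.43, 2.03 to 2.80) were called higher, 2 of 7 members with enough UMI, beside 20.9% of all 15408 genes. Stra8 (-2.55) and Crabp1 (-1.97), on 7 UMI each in Sertoli-like cells, were called lower, beside 7.79% of all genes. At a mitochondrial limit of 20% Crabp1 was at -0.55 and not called. Aldh1a2, Rdh10 and Rarg were not called, at 0.21, -0.42 and -0.90. In Leydig-like cells over named germ cells, 2 of 7 members were called higher beside 33.8% of 15804 genes. These were Aldh1a1 (11.30, 11.08 to 11.52) and Rara (1.65, 1.09 to 2.15). For Rara this holds against the germ cell pool (4.07 CPM) and not against every germ cell class. Rara was at 12.7 CPM in Leydig-like, 18.0 CPM in spermatogonia-like and 1.52 CPM in elongating spermatid-like cells. Stra8 (-5.18, on 1 UMI), Rdh10 (-2.02, -2.86 to -1.29) and Crabp1 were called lower, beside 32.4% of all genes. Crabp1 had no UMI in Leydig-like cells and was at least 8.11-fold lower against a floor of 3 UMI for the class. With 7 members these counts do not set the members apart from all genes.

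Interstitial mesenchymal-like cells over named germ cells was a comparison added after seeing the data. Cyp26b1 (11.02, 10.47 to 11.62) and Aldh1a1 (8.72, 8.43 to 9.01) were called higher there, 2 of 8 members beside 21.8% of 15405 genes. Stra8 had no UMI in these cells and was the only member called lower, at least 2.32-fold against the same floor, beside 17.2% of all genes. Peritubular myoid-like cells had under 20 cells in every suffix, so nothing was called. Cyp26b1 was at 12.86 there over named germ cells (12.30 to 13.47) and Aldh1a1 at 8.23 (7.70 to 8.73), where the median gene was at 2.05.

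The wider pathway held 47 further genes, in part with enough UMI. In Leydig-like over named germ cells, 16 of 32 were called higher and 8 lower, beside 33.8% and 32.4% of all genes, with a median of 1.74, against 0.22 over all genes. The highest were Adh1 (10.56), a retinol-oxidising alcohol dehydrogenase, Tgm2 (10.56) and Bhlhe40 (10.21), both known as retinoic acid targets in other cells, and Aldh1a7 (10.16). Aldh1a7 is a close relative of Aldh1a1, and how reads were split between them was not tested. The lowest were Bco1 (-3.49), the carotene-cleaving enzyme, Rxrg (-2.94, on 1 UMI), Rec8 (-2.92), a meiotic cohesin, and Lrat (-2.75), which esterifies retinol for storage. In Sertoli-like over named germ cells, 7 of 28 were called higher and 2 lower, beside 20.9% and 7.79% of all genes, with a median of 0.32, against 0.13 over all genes. Dhrs7 (8.11), Rarres1 (7.91) and Fabp5 (7.55), a lipid-binding protein that also binds retinoic acid, were among the highest. Rbp4 (-1.99) and Rxra (-1.66), an RXR partner of the RARs, were lower. In interstitial mesenchymal-like over named germ cells, 11 of 27 were called higher and 4 lower, beside 21.8% and 17.2% of all genes, with a median of 1.90, against 0.99 over all genes. Among the highest were Rarres2 (13.39), which encodes chemerin, Dhrs7 (8.31) and Fabp5 (6.72). The lowest were Rec8 (-3.53, on 1 UMI), Dgat1 (-2.57), Bco1 (-2.11) and Rdh11 (-1.80).

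Aldh1a2, the other retinal dehydrogenase measured, was highest among the named classes in late spermatocyte-like cells. Spermatogonia-like cells had 23.0 CPM, with 20.5, 29.3, 22.9 and 20.5 CPM by suffix. Early spermatocyte-like cells had 48.3 CPM, with 46.3, 44.7, 55.4 and 44.2 CPM by suffix. Late spermatocyte-like cells had 108 CPM (104 to 112), with 110, 107, 108 and 107 CPM by suffix. Round spermatid-like cells were lower at 22.8 CPM, and elongating spermatid-like cells were at 5.16 CPM. The suffix values of late spermatocyte-like cells lay above those of each other germ cell class without overlap. Leydig-like cells had 52.0 CPM. Sertoli-like cells had 34.9 CPM, spread over 17.8, 27.5, 55.5 and 40.5 CPM by suffix. They also carried the spermatid marker RNA given above, whose part in their levels was not tested. No UMI was found in the 30 peritubular myoid-like cells, which at a floor of 3 UMI allows up to 26.8 CPM.

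Within the late spermatocyte-like cells, cluster 24 (307 cells, median 39554 UMI) had 131 CPM of Aldh1a2 and cluster 5 (1896 cells) 75.0 CPM. Their ratio was 1.74 (1.59 to 1.90). Cluster 24 held 1939 of the 2841 UMI of Aldh1a2 in the class, so the pooled level rests mainly on these few deep cells. As a mean over cells the class was at 76.3 CPM. An unnamed cluster of 422 cells had 144 CPM. It scored highest as early spermatocyte (0.77), ahead of late spermatocyte (0.64). The level of early spermatocyte-like cells, and the ratios built on it, leave this cluster out. Unnamed cells held 43.4% and late spermatocyte-like cells 36.1% of the 7861 UMI of Aldh1a2, so the levels by class leave out much of its RNA. Among round spermatid-like clusters the level ran between 7.17 CPM in cluster 11 (1166 cells) and 44.7 CPM in cluster 8.

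Rdh10, the retinol dehydrogenase, was highest in round spermatid-like cells. Spermatogonia-like cells had 11.8 CPM, early spermatocyte-like cells 9.48 CPM and late spermatocyte-like cells 3.68 CPM, in the last case with 4.96, 3.29, 3.44 and 3.44 CPM by suffix. Round spermatid-like cells had 59.9 CPM (57.3 to 62.5), with 67.0, 49.96, 61.9 and 60.3 CPM by suffix, and held 56.5% of its 3721 UMI. Elongating spermatid-like cells had 13.9 CPM, with 14.8, 14.0, 14.4 and 12.5 CPM by suffix. The last 3 of these classes did not overlap over suffixes. Sertoli-like cells had 17.5 CPM, with 19.3, 20.4, 4.62 and 23.5 CPM by suffix, and Leydig-like cells 5.78 CPM. Rdh10 and Aldh1a2 ran in opposite order between these clusters of round spermatid-like cells. Cluster 11 had 98.6 CPM and cluster 8 had 29.5 CPM of Rdh10, a ratio of 3.34 (2.85 to 3.93). A UMI of Rdh10 was found in 18.8% of round spermatid-like cells (median 2634 UMI) and 2.66% of late spermatocyte-like cells (median 2840 UMI), and in 5.26% and 0.857% after thinning to 1000 UMI.

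Crabp1 was nearly limited to the spermatogonia-like class, which took in preleptotene-like cells as well (below). The summed early spermatocyte markers of this class were at 1222 CPM, against 5157 CPM in early spermatocyte-like cells. The same limit holds for Stra8. Spermatogonia-like cells had 391 CPM of Crabp1 (370 to 414), with 386, 355, 444 and 378 CPM by suffix, and held 94.7% of its 1332 UMI. Early spermatocyte-like cells had 8.58 CPM, with 7.12, 8.95, 7.29 and 11.5 CPM by suffix, far below. Late spermatocyte-like cells had 0.0758 CPM. No UMI was found in Leydig-like, interstitial mesenchymal-like or peritubular myoid-like cells. At a floor of 3 UMI this allows up to 1.16, 6.03 and 26.8 CPM, where the upper 95% Poisson limits were 1.42, 7.42 and 32.9 CPM.

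Stra8, the germ cell gene of meiotic entry, was found in both spermatogonia-like and early spermatocyte-like cells. Early spermatocyte-like cells had 396 CPM (370 to 423), with 336, 414, 429 and 400 CPM by suffix. Spermatogonia-like cells had 325 CPM (305 to 345), with 339, 257, 371 and 322 CPM by suffix. The suffix values of the 2 classes overlapped. Spermatogonia-like cells held 53.1% and early spermatocyte-like cells 44.5% of its 1969 UMI. Late spermatocyte-like cells had 9 UMI, or 0.341 CPM, in 3531 cells. A UMI was found in 40.8% of spermatogonia-like cells (median 4262 UMI), 26.2% of early spermatocyte-like cells (median 3602 UMI) and 0.255% of late spermatocyte-like cells (median 2840 UMI). With cells thinned to 1000 UMI the shares were 21.5%, 17.9% and 0.122%, with the 97, 6 and 264 shallower cells left out. Reads of the Stra8-Cre transgene could not be told apart from reads of Stra8 with the files used here.

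The spermatogonia-like and early spermatocyte-like cells were clustered again to place Stra8 and Crabp1 more finely. Subcluster 6 (61 cells) had markers of undifferentiated spermatogonia, with Zbtb16 at 181 CPM and Gfra1 at 54.4 CPM. Subcluster 3 (162 cells) was led by Lmo1, Crabp1, Ascl2 and Dnmt3b and had Kit at 58.0 CPM. It scored highest as preleptotene (0.93), ahead of differentiating spermatogonia (0.63), and took no name because markers of another type led. Of the markers of differentiating spermatogonia, Sohlh1 was higher in subcluster 6 (289 against 194 CPM) and Prss50 in subcluster 1 (1303 against 324 CPM). Subcluster 2 (174 cells) was named preleptotene-like, and subcluster 1 (266 cells), with Dmc1 at 249 CPM and Prdm9 at 103 CPM, leptotene to zygotene-like. Subcluster 2 held 292 UMI of Crabp1 and the whole early spermatocyte-like class 19. Most of the Crabp1 RNA of subcluster 2 thus lay in cells classed as spermatogonia-like. Subcluster 4 (92 cells) took no name and had Piwil1 at 260 CPM and Hormad1 at 636 CPM. Of the other 3 subclusters, which are not followed further or drawn, 2 took no name, and 24 cells scored as leptotene to zygotene-like but were led by the Sertoli markers Clu, Cst9 and Cst12. Subcluster 0 (300 cells, median 1200 UMI) was led by genes such as Tmem190, also a leading gene of a round spermatid-like cluster. Subcluster 5 (82 cells) was led by the elongating spermatid marker Prm2, at 35406 CPM. Subclusters 0 and 5 held 172 and 80 UMI of Stra8, and 154 and 106 UMI of Crabp1.

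Stra8 had 159, 627, 421, 531 and 1.33 CPM in subclusters 6, 3, 2, 1 and 4, in that order. In subcluster 3 it was at 633, 398, 752 and 605 CPM by suffix, against 206, 216, 51.6 and 145 CPM in subcluster 6, which had 13 to 16 cells per suffix. Subcluster 3 was 3.95-fold above subcluster 6 (3.10 to 5.10), in 4 of 4 suffixes. Subcluster 1, with 397, 755, 512 and 538 CPM by suffix, was at 0.85 times the level of subcluster 3 (0.75 to 0.95), and higher in 1 of 4 suffixes. The shares of cells with a Stra8 UMI lay further apart, at 27.8% in subcluster 1 (median 3334 UMI) and 69.1% in subcluster 3 (median 7022 UMI). In subcluster 4 only 1 UMI of Stra8 was found.

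Crabp1 ran with Stra8 in the first 3 of these subclusters and not in subcluster 1. It had 167, 570, 340, 10.4 and 1.33 CPM in subclusters 6, 3, 2, 1 and 4. Subcluster 3, with 585, 543, 567 and 576 CPM by suffix, was 3.40-fold above subcluster 6 (2.68 to 4.37). Subcluster 1, with 14.6, 11.3, 8.19 and 7.63 CPM by suffix, was 54.6-fold below subcluster 3 (log2 -5.77, -6.84 to -4.88). UMI of both genes in the same cell were found in 20 of 61 cells of subcluster 6, 89 of 162 of subcluster 3, 49 of 174 of subcluster 2 and 5 of 266 of subcluster 1. Median depths of these subclusters were 7709, 7022, 4526 and 3334 UMI per cell in that order, and were not made equal for these counts. Aldh1a2 was at 50.1 CPM in subcluster 1 and 28.5 CPM in subcluster 3, a ratio of 1.76 (1.10 to 2.84) in 4 of 4 suffixes. Cyp26b1 was at 6.53 and 7.13 CPM in subclusters 6 and 3, and no UMI of it was found in subclusters 2, 1 and 4.

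**Figure D3:**
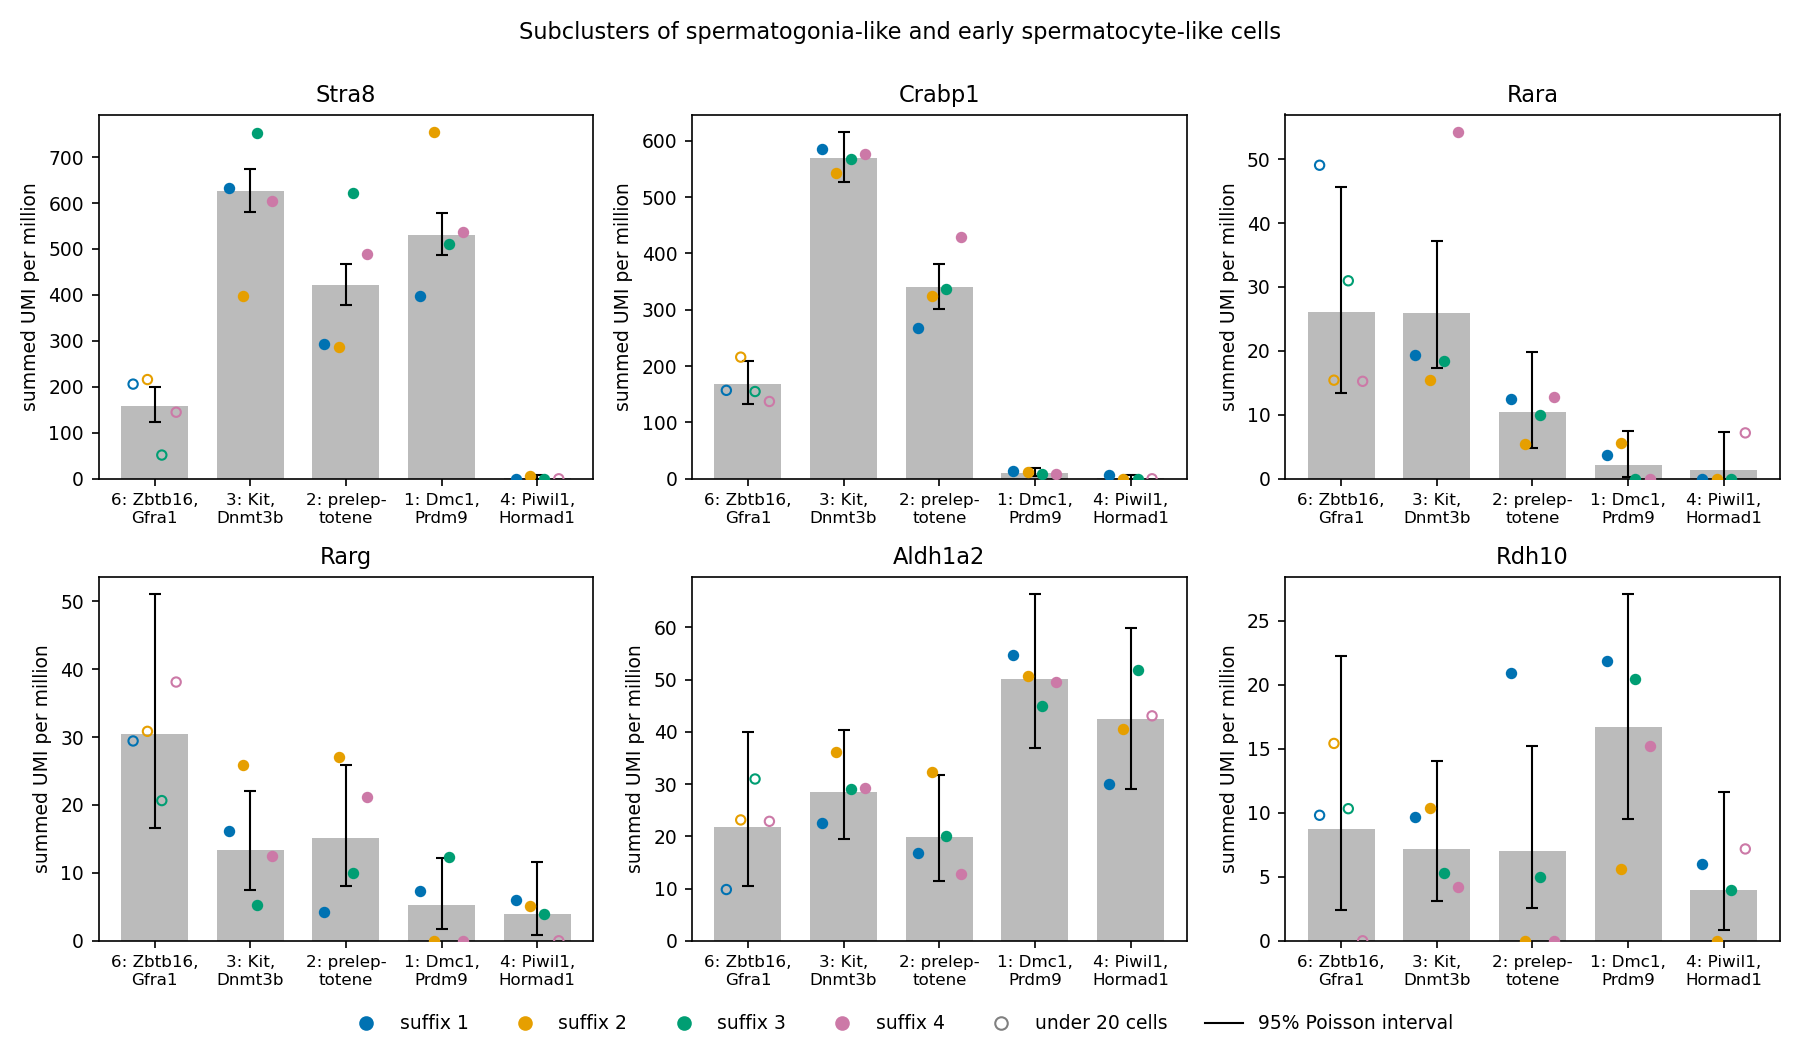
Level of 6 of the genes, in CPM on linear axes, in 5 subclusters of spermatogonia-like and early spermatocyte-like cells. Bars and error bars are pooled levels with 95% Poisson intervals, points are barcode suffixes and open points stand for under 20 cells. Stra8 is at 531 in subcluster 1 and 627 in subcluster 3, whereas Crabp1 is at 10.4 in subcluster 1 and 570 in subcluster 3.

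Both receptors were sparse. Rara was spread over many classes, with 21.9 CPM in Sertoli-like cells (16.9 to 28.0) from 64 UMI, and 25.3, 16.8, 15.4 and 30.1 CPM by suffix. Spermatogonia-like cells had 18.0 CPM, with 18.2, 11.7, 19.1 and 21.7 CPM by suffix, which overlap those of the Sertoli-like cells. Leydig-like cells had 12.7 CPM, and Sertoli-like cells were 1.72-fold above them (1.11 to 2.71), in 3 of 4 suffixes. Lymphocyte-like cells (27) had 97.6 CPM on 9 UMI and peritubular myoid-like cells 35.7 CPM on 4 UMI. Among later germ cells, Rara was at 3.61 CPM in early and 4.59 CPM in late spermatocyte-like cells, and at 7.66 CPM in round and 1.52 CPM in elongating spermatid-like cells. At 1049 UMI per cell, the share of Sertoli-like cells with a Rara UMI was 3.09%.

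Rarg, with 148 UMI in all cells, was a receptor of spermatogonia-like cells among the germ cells. They had 16.5 CPM (12.3 to 21.5) from 53 UMI, with 13.7, 20.5, 10.2 and 21.7 CPM by suffix. Early spermatocyte-like cells had 4.06 CPM and late spermatocyte-like cells 0.72 CPM. Sertoli-like cells had 1 UMI of Rarg, or 0.342 CPM. Lymphocyte-like, endothelial-like (49) and macrophage-like (239) cells had 108, 33.9 and 18.4 CPM on 10, 10 and 12 UMI. In the germ cell subclusters 6, 3, 2 and 1, Rarg was at 30.5, 13.4, 15.1 and 5.22 CPM and Rara at 26.1, 25.9, 10.5 and 2.09 CPM. Rarg in subcluster 3 was at 0.44 times the level of subcluster 6 (0.20 to 0.98), lower in 4 of 4 suffixes, and Rara at 0.99 times (0.49 to 2.13).

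Along the germ cell classes, every step but the last held 1 member called higher, and every step at least 1 called lower. In early spermatocyte-like over spermatogonia-like cells, Aldh1a2 was called higher (1.07, 0.63 to 1.52), 1 of 6 members with enough UMI beside 11.1% of 9099 genes. Crabp1 (-5.51, -6.25 to -4.86), Rara (-2.32, -3.60 to -1.24) and Rarg (-2.02, -3.22 to -0.99) were called lower, beside 18.3% of all genes. Stra8 was not called, at 0.28 (0.15 to 0.42). In late over early spermatocyte-like cells, Aldh1a2 was again called higher (1.16, 0.88 to 1.45), 1 of 4 members beside 29.5% of 11574 genes. Stra8 (-10.18, -11.31 to -9.25) and Rdh10 (-1.37, -2.06 to -0.61) were called lower, beside 29.9% of all genes. At a coarser clustering (resolution 0.5) the Aldh1a2 ratio of this step was -0.25 and the Rdh10 ratio 0.48, both of the opposite sign.

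In round spermatid-like over late spermatocyte-like cells, Rdh10 was called higher (4.03, 3.73 to 4.33), 1 of 4 members beside 29.7% of 13292 genes. Aldh1a2 was called lower (-2.24, -2.36 to -2.13), beside 41.2% of all genes, while Rara was at 0.74 and not called. In elongating over round spermatid-like cells no member was called higher, where 4.21% of 12698 genes were. Rara (-2.33), Aldh1a2 (-2.14) and Rdh10 (-2.11) were called lower, 3 of 4 members beside 65.6% of all genes, and the median over all genes was -1.62. Scaled by median-of-ratios factors these 3 ratios were -0.49, -0.30 and -0.27 and none was called. With 4 to 6 members per step, these counts do not set the members apart from all genes.

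**Figure D4:**
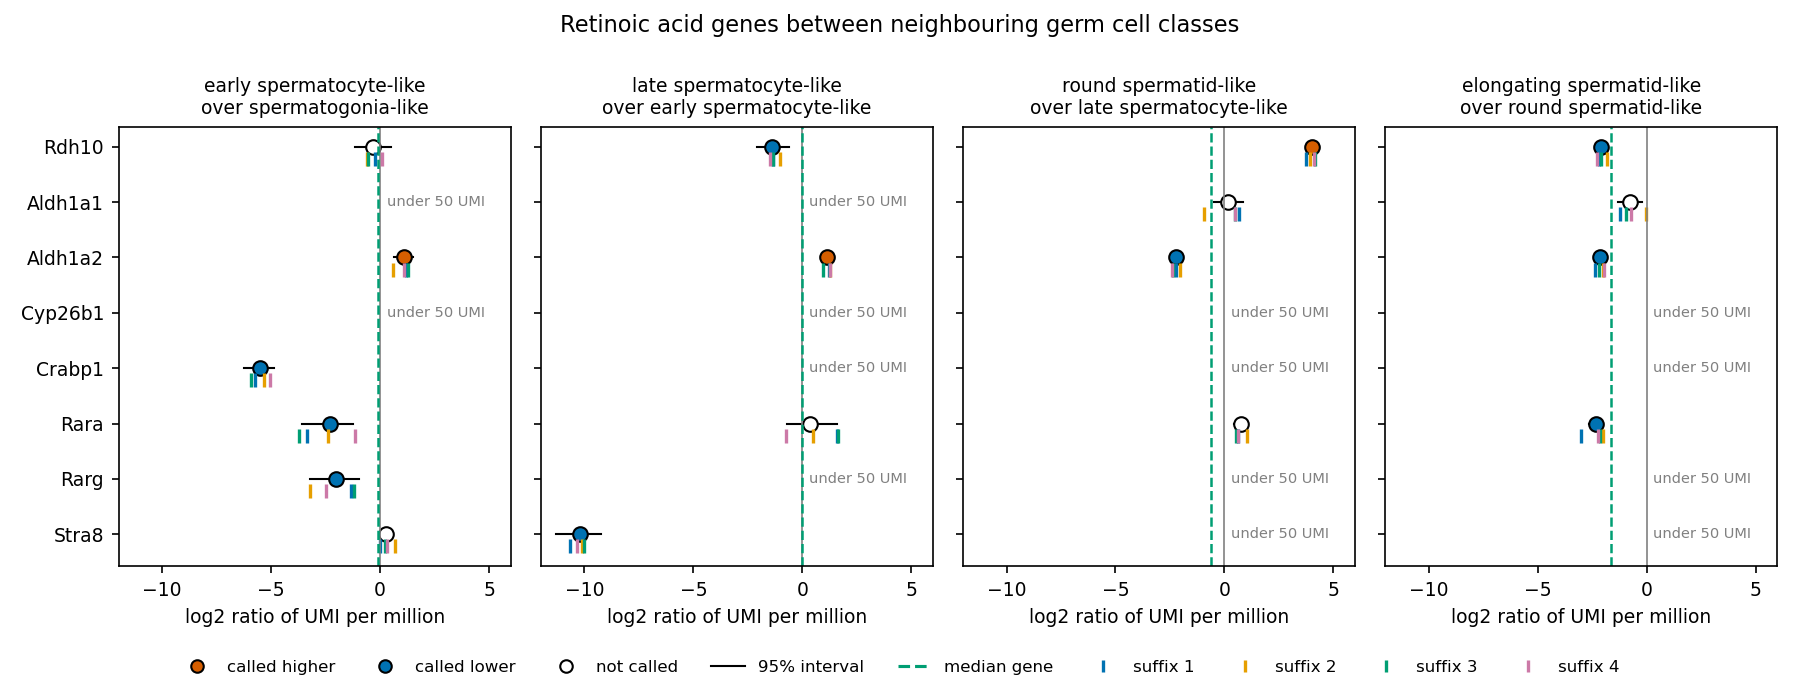
Log2 ratio of each gene at 4 steps of germ cell development, later class over earlier class, with 95% intervals, the 4 suffixes as ticks and the median gene as a dashed line; members with under 50 UMI have no point. Aldh1a2 is at 1.07 and 1.16 in the first 2 steps and -2.24 and -2.14 in the last 2, and Rdh10 is at 4.03 in round spermatid-like over late spermatocyte-like cells.

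Pathway genes beyond the members were called in both directions at every step. In early spermatocyte-like over spermatogonia-like cells, 4 of 14 were called higher and 4 lower, beside 11.1% and 18.3% of all genes. Nr2c2 (2.88), an orphan nuclear receptor, Rdh14 (1.87) and Rdh11 (1.15), of the retinol dehydrogenase family, and Dgat1 (1.29), an acyltransferase, were higher. Rxra (-2.46) and Adh5 (-2.00) were among those lower. In late over early spermatocyte-like cells, 4 of 17 were called higher and 5 lower, beside 29.5% and 29.9% of all genes. Dhrs4 (2.77), Rdh11 (2.31), Lrat (1.95) and Nr2c1 (1.73) were higher, and Rbp4 (-6.79), Adh5 (-6.00) and Rxrb (-2.05) were among the lowest. In round spermatid-like over late spermatocyte-like cells, 7 of 18 were called higher and 9 lower, beside 29.7% and 41.2% of all genes. Rxra (4.41), Bco1 (3.0) and Rxrg (2.37) were among the highest, and Rxrb (-3.82), Dgat1 (-2.25), Dhrs3 (-2.09) and Dhrs4 (-2.07) the lowest. In elongating over round spermatid-like cells, 2 of 22 were called higher, among them Rxrg (1.21), and 10 lower, led by Adh7 (-3.71), Rec8 (-3.62), Dgat1 (-3.10) and Lrat (-2.37), beside 4.21% and 65.6% of all genes. The pathway medians of the 4 steps were -0.46, 0.16, -1.0 and -0.81, against -0.09, -0.02, -0.61 and -1.62 over all genes.

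The genes with the most similar profile to each member were found by Pearson's r of log2(CPM + 1) over 36 profiles, 9 classes by 4 suffixes, among 13578 genes. Profiles of the same class share a cell type and profiles of the same suffix share that suffix, so r is a description. For Aldh1a1 they were Gstm1 (0.98), Acsbg1 (0.98) and Gstm2 (0.97), and for Cyp26b1 Col1a1 (0.98), Entpd2 (0.95) and Adamts5 (0.95). For Stra8 they were Tktl1 (0.97), Zglp1 (0.96) and Mageb4 (0.96), and for Crabp1 Mbnl3, Rcor2 and Ccna2 (0.93 each). Aldh1a2 was nearest to 1110065P20Rik (0.87), Hadha (0.86) and Ddt (0.85), and Rdh10 to Cntn1 (0.89), Tmem132cos (0.86) and Adam6a (0.84). The sparse receptors had lower values, with Slc52a2 (0.81), Armc10 (0.77) and Vps18 (0.76) for Rara and Mtmr10 (0.84), Aldh16a1 (0.83) and Scaf8 (0.81) for Rarg.

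On GRCm38, Rdh10 (ENSMUSG00000025921) lies at chr1:16105774-16133734 on the plus strand and Aldh1a1 (ENSMUSG00000053279) at chr19:20492715-20643465 on the plus strand. Aldh1a2 (ENSMUSG00000013584) lies at chr9:71215789-71296243 and Crabp1 (ENSMUSG00000032291) at chr9:54764748-54773110, both on the plus strand. Cyp26b1 (ENSMUSG00000063415) lies at chr6:84571414-84593908 on the minus strand and Stra8 (ENSMUSG00000029848) at chr6:34920163-34939344 on the plus strand. Rara (ENSMUSG00000037992) lies at chr11:98927818-98974942 on the plus strand and Rarg (ENSMUSG00000001288) at chr15:102234938-102257517 on the minus strand. The annotation places Gm48124 on the other strand within Aldh1a2, C730002L08Rik and Gm6684 on the other strand of Aldh1a1, and Gm22061 on the same strand as Rara. No source used here says whether counting kept the strand, and reads of these overlapping genes cannot be told apart from those of the members.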

How the data were processed

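UMI counts per gene and barcode were deposited by the authors as 1 matrix of raw counts. Per the labels' protocols, libraries were made with a Chromium 3′ v3 kit. The submitters' processing notes name Cell Ranger 3.0.2, bcl2fastq 2.19.1.403 and build mm10. Barcodes under 500 detected genes or above 10% UMI from mitochondrial genes were dropped. Scrublet (in scanpy 1.11.5) marked 1 of 29968 cells at an expected rate of 6%, so doublets remained. Cells were scaled to 10000 UMI and clustered with scanpy and leidenalg 0.10.2 (2000 variable genes, 30 components, 15 neighbours, resolution 1). A class needed at least 3 detected markers and a median of at least 1000 UMI. Small somatic clusters and early germ cells were clustered again. Members, pathway and marker lists were chosen with earlier results of these data known. The text names all members, the 4 called pathway genes with the largest ratio in each direction, and the 3 genes most like each member. Some genes that this rule names are not reported here. UMI were summed per class, with exact Poisson, Clopper-Pearson (share) or conditional binomial (ratio) intervals at 95%. The 4 suffixes were never used as replicates in a test. Of the pathway list's symbols, 47 were found in the matrix and 1 was not. Positions came from GENCODE M21, in which 28339 of the 28692 identifiers were found. On simulated counts for late over early spermatocyte-like cells, the call rule recovered 50 of 50 genes at each simulated fold and called 1.31% of 11648 unchanged genes. These counts had Poisson error only, without differences between suffixes or errors of clustering, and the changed genes had at least 50 UMI. They check the arithmetic of the rule and give no error rate for the real data.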

Additional observations from a re-analysis of the deposited data

How the results depend on the processing

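The results rest on 1 pooled matrix, on clusters rebuilt here and on few UMI for Rara, Rarg and Cyp26b1, so no genotype effect and no replicate error could be given. No paired analysis was possible because no barcode is tied to a sample or replicate number. There were 22 called member ratios (all comparisons, less those with a class at 0 UMI) and 15 alternatives. Of these ratios, 13 stayed called in every alternative that gave them a value. Ratios of Sertoli-like cells had no value at resolution 0.5. Of the 321 pairs of ratio and alternative with a value, 319 kept their direction. The other 2 were late over early spermatocyte-like cells at resolution 0.5, with -0.25 for Aldh1a2 and 0.48 for Rdh10. Members called numbered 9 in the somatic comparisons, counted over Sertoli-like and Leydig-like cells without the interstitial comparison added later, and 12 in the stage comparisons. Resolution 0.5 gave 5 in the somatic comparisons, since no class was named Sertoli-like there. With no filter on UMI, 19 were called in the stage comparisons, where sparser members entered. Leaving out 1 suffix gave 9 to 10 and 10 to 11. Aldh1a2 in early spermatocyte-like over spermatogonia-like cells lost its call at a mitochondrial limit of 20% (0.99), with no doublet removal (0.76), as a mean over cells (0.85) and without suffix 3 (0.97). In late over early spermatocyte-like cells, the mean over cells gave 0.70 for Aldh1a2 and -0.06 for Rdh10, and Rdh10 was at -0.72 with shallow clusters named, an alternative added after seeing the data. Crabp1 in Sertoli-like over named germ cells was at -0.55 at a mitochondrial limit of 20%. Calls lost without a suffix for Rara (-2.08 and -3.23) and Rarg (-2.27, -1.76 and -1.81) in early spermatocyte-like over spermatogonia-like cells fell under the UMI minimum. Except for that minimum, for the class missing at resolution 0.5 and for the UMI filter, the cause was not tested.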
